A study of Mus musculus with 8 samples.

Results

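The circadian clock genes described here are Arntl, Nr1d2, Cry2 and Ciart, measured in the stripped dorsal skin of mouse embryos. They are the 4 of 10 clock symbols (Ciart, Nr1d1, Nr1d2, Cry1, Cry2, Per1, Per2, Per3, Dbp and Arntl) that the authors' deposited table of changed probe sets names. That table holds 5460 of the 33793 probe sets on the array (16.2%), which the authors kept for an adjusted p below 0.05 together with a log2 difference between genotypes larger than 0.5 in size. The difference between genotypes therefore chose these genes, and it is given below as a description with no test.

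The KO embryos (n = 4) carried the genotype KRT14-Cre(tg/0)/Cdsnfl/fl, and the WT embryos (n = 4) the genotype KRT14-Cre(tg/0)/Cdsnwt/wt. Both groups thus carried the Cre transgene, driven by the promoter of keratin 14, a gene of basal keratinocytes, while the RNA came from whole skin with its dermis. All embryos were C57B/6J (as the labels spell it), were taken by caesarean delivery at E18.5 (late gestation), and had their back skin tape-stripped and then kept in culture medium for 4 h at 37 °C. The labels give no time of day for the deliveries, no litter and no sex, so any of these that ran with genotype cannot be told apart from it, and nothing states that the embryos came from separate litters.

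The mammalian clock is a feedback loop of transcription. The proteins of Clock and Arntl (BMAL1) pair up, bind E-boxes in promoters and switch on the Per, Cry, Nr1d and Ciart genes, and the PER, CRY and CIART (CHRONO) proteins then repress that pair. NR1D1 and NR1D2 (REV-ERB alpha and beta) repress Arntl through ROR elements, which the ROR receptors use to activate it. In mouse epidermis the clock is known for timing keratinocyte division and the activation of hair follicle stem cells.

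The 2 genes that were higher in KO skin were Arntl, the activator, and Nr1d2, a repressor of Arntl, at 1.47 and 1.77 times their WT intensities. The 2 that were lower were Cry2 and Ciart, both repressors of the CLOCK-BMAL1 pair, at 0.583 and 0.489 times their WT intensities. The promoters of the 4 genes are shown because clock proteins are known to act through short elements in such stretches. Each window runs from 250 bases before to 50 bases after an annotated start, as RefSeq gives it on GRCm38.p6, and all 4 genes matched by symbol. The windows shown are chr7:113207261-113207560 (plus strand) for Arntl, chr14:18239057-18239356 (minus strand) for Nr1d2, chr2:92434020-92434319 (minus strand) for Cry2 and chr3:95882179-95882478 (minus strand) for Ciart. Capitals mark an E-box, a nuclear receptor core element or an extended ROR element.
Arntl: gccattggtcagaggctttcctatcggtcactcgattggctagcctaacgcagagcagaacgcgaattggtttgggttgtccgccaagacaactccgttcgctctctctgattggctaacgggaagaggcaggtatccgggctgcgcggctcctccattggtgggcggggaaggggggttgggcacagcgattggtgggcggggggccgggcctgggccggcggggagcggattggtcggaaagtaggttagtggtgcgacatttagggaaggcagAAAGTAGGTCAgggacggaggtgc
Nr1d2: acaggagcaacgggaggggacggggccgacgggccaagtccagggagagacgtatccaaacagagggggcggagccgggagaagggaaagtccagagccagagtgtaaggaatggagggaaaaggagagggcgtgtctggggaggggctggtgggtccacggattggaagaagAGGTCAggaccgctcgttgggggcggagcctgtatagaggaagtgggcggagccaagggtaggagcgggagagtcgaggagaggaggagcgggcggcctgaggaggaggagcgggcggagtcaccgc
Cry2: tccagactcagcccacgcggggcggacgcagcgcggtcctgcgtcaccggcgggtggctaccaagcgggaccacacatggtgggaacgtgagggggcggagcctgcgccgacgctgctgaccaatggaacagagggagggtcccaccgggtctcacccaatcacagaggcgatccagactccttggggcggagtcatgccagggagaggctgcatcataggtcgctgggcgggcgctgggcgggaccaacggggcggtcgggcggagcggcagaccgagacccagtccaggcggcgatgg
Ciart: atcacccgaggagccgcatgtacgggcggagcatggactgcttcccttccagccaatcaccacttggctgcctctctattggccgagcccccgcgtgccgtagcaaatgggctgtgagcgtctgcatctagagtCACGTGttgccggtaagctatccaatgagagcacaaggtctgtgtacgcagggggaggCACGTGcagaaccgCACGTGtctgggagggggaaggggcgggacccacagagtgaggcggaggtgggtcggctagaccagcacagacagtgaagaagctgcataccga

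Ciart held 3 copies of the E-box CACGTG, which begin 116, 58 and 44 bases before the start. Of 32851 promoter windows of this length, 7.15% held at least 1 such E-box and 29 (0.0883%) held 3 or more. Arntl held an extended ROR element that begins 27 bases after the second of its annotated starts, a match found in 0.384% of all windows. This match overlaps the core element AGGTCA, searched on both strands like every motif here and found in 16.3% of windows. The window of the first Arntl start, 46 bases upstream and largely the same sequence, ends before this element. Nr1d2 held an AGGTCA that begins 77 bases before its start. The window of Cry2 held none of these motifs as spelled, and none of the 4 genes matched the D-box (TTATGTAA or TTACGTAA, 1.06% of windows) or the cAMP response element (TGACGTCA, 1.79%). Only these patterns were searched, so variants, such as an E-box or ROR element with 1 other letter, were not counted. Some windows of 1 gene overlap, and a match is a run of letters, not a measured binding site.

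**Figure D1:**
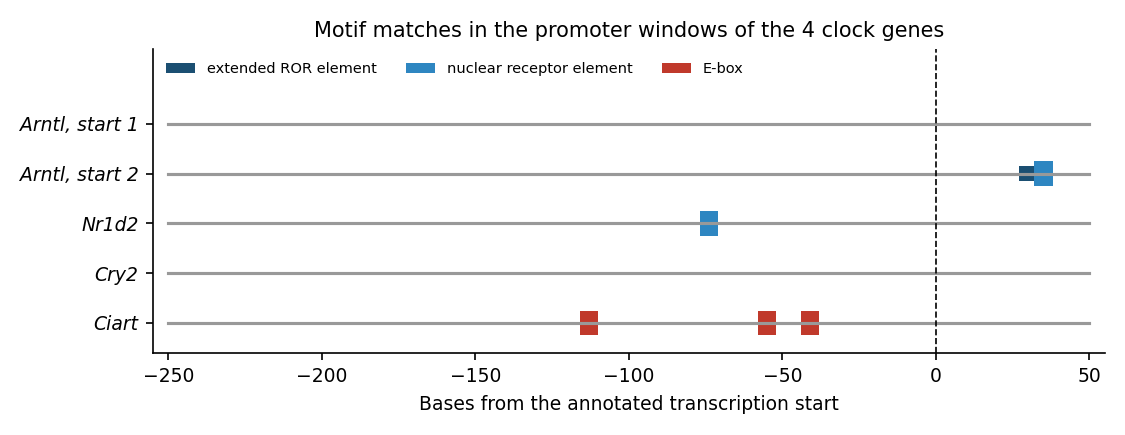
Positions of motif matches (coloured boxes) along the promoter windows of the 4 clock genes, in bases from the annotated transcription start (dashed line), with a row for each start of Arntl. The 3 E-boxes of Ciart lie upstream of its start, and the matched ROR element of Arntl lies downstream of the second start.

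Levels are log2 intensities, as deposited, of 1 probe set per gene, so that 1 unit is a doubling of brightness, and levels of different genes cannot be compared. Cdsn, which encodes the adhesion protein corneodesmosin, stood at 8.09, 8.51, 8.0 and 8.91 in KO replicates 1 to 4, against 11.76, 11.82, 11.69 and 12.10 in WT replicates 1 to 4. The arrays thus followed their labels, although the floxed stretch of Cdsn, and so how many probes lie in it, is not stated. On the first principal component of all probe sets, KO replicate 3 was the KO array least far from WT (−25.4, other KO arrays −46.0 to −40.1, WT arrays 34.8 to 43.7). On the second component WT replicate 1 was away from the rest (−51.3, the other arrays −16.6 to 27.9), so estimates without both arrays are also given. Over all probe sets the KO minus WT difference had a median of 0.09 in the deposited values and of −0.02 once each array was centred on its median.

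Ciart had the largest difference of the 4 genes. It is encoded on chromosome 3 and read by 29 probes. Its log2 intensities were 6.15, 6.15, 6.31 and 6.11 in KO replicates 1 to 4, against 6.96, 7.36, 7.15 and 7.38 in WT replicates 1 to 4. Every KO value lay below every WT value, with a gap of 0.65 between the groups, wider than the range within KO (0.20) or within WT (0.42). The means were 6.18 ± 0.09 in KO and 7.21 ± 0.20 in WT skin (SD, n = 4 each), a difference of −1.03 ± 0.13 (SE) that equals 51.1% less intensity. It was −1.16 ± 0.14 without KO replicate 3 and WT replicate 1, and −1.14 after centring. By size Ciart stood in place 200 of the 1487 probe sets that the authors' deposited table lists as lower in KO.

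Cry2, the cryptochrome on chromosome 2 that binds and represses CLOCK-BMAL1, was lower with more spread. KO replicates 1 to 4 had log2 intensities of 7.54, 8.05, 7.69 and 8.12, against 8.41, 8.60, 8.36 and 9.14 in WT replicates 1 to 4. The groups did not overlap, but the gap of 0.24 was smaller than the ranges within KO (0.58) and within WT (0.78). KO replicate 1 was the lowest of its group, and WT replicate 4 the highest of its own, by a wide step. The means were 7.85 ± 0.28 in KO and 8.63 ± 0.36 in WT skin (SD, n = 4 each), a difference of −0.78 ± 0.20 (SE), or 41.7% less intensity. Leaving out WT replicate 4 gave −0.61 ± 0.17, the smallest estimate, and leaving out KO replicate 1 gave −0.68 ± 0.20, with which Cry2 no longer met the authors' criteria. It also missed them without KO replicate 3 and WT replicate 1 together (−0.80 ± 0.23), where the difference was no smaller but its error was larger.

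Nr1d2, on chromosome 14, encodes the haem-binding repressor REV-ERB beta. It had log2 intensities of 7.72, 7.53, 7.13 and 7.37 in KO replicates 1 to 4, against 6.47, 6.80, 6.49 and 6.68 in WT replicates 1 to 4. All KO values were above all WT values, and KO replicate 3 was again the one nearest to WT. The means were 7.44 ± 0.25 in KO and 6.61 ± 0.16 in WT skin (SD, n = 4 each), a difference of 0.83 ± 0.15 (SE). It was 0.88 ± 0.16 without KO replicate 3 and WT replicate 1, and 0.72 after centring. Its paralogue Nr1d1 is not among the genes of the authors' deposited table.

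Arntl, on chromosome 7, was the gene closest to the limits of the rule. Its 37 probes gave log2 intensities of 8.52, 8.44, 8.16 and 8.54 in KO replicates 1 to 4, against 7.67, 7.91, 7.69 and 8.17 in WT replicates 1 to 4. The groups overlapped by 0.01, where KO replicate 3 lay just under WT replicate 4, so that 15 of 16 pairs of a KO and a WT array had the KO array higher. The means were 8.42 ± 0.18 in KO and 7.86 ± 0.23 in WT skin (SD, n = 4 each), a difference of 0.56 ± 0.15 (SE). After centring it was 0.45 ± 0.16, after quantile normalization 0.43 ± 0.14 and after cyclic loess 0.45 ± 0.15, all of which missed the authors' criteria. It also missed them without eBayes moderation of the variances and in 5 of 8 fits that left out 1 array (0.49 to 0.55). The value was 0.58 ± 0.16 without KO replicate 3 and WT replicate 1.

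**Figure D2:**
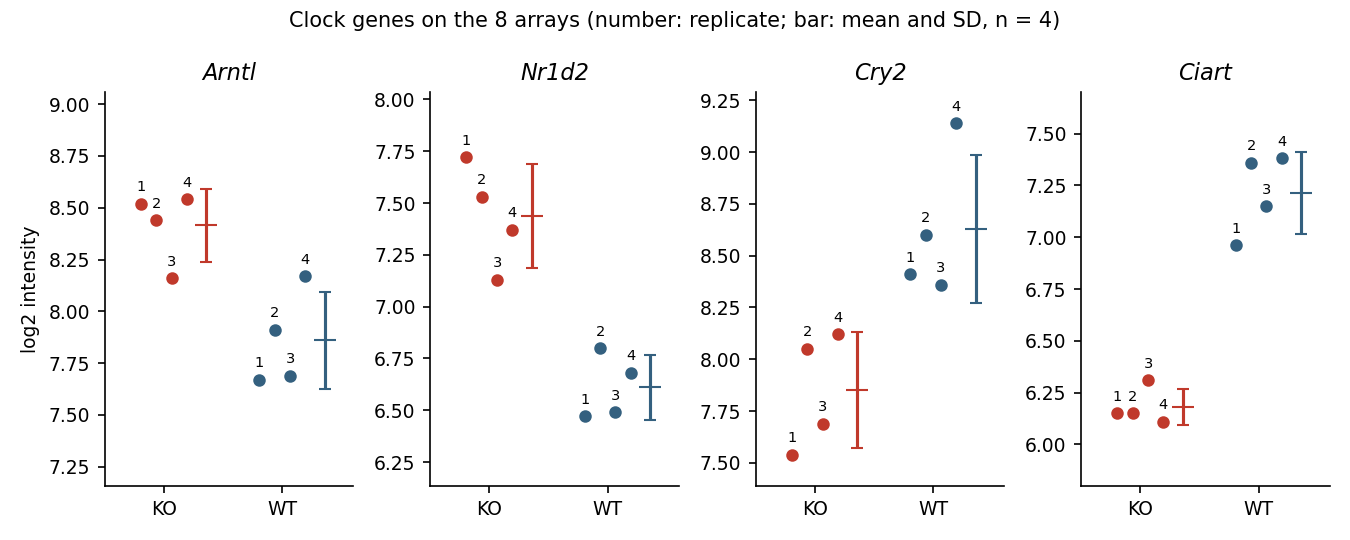
Log2 intensity of the 4 clock genes on each array, KO left and WT right in each panel, with points numbered by replicate and the bar giving the mean and SD (n = 4). The panels span the same number of log2 units but start at different levels. The groups are apart for Nr1d2, Cry2 and Ciart and touch for Arntl, where KO replicate 3 (8.16) and WT replicate 4 (8.17) meet.

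Across the whole array 25.0% of probe sets had KO and WT values that did not overlap, 17.6% with KO above and 7.43% with KO below, and 16.2% met the authors' criteria, 11.8% higher and 4.4% lower. Since the criteria chose the genes, the 3 of 4 that did not overlap are not read against these shares. In the authors' deposited table Arntl lay just inside the criteria, with a log2 difference of 0.56 and an adjusted p of 0.0228, and Ciart farthest inside, with −1.03 and 0.000865. Genes just outside could not be named, because symbols were available only for probe sets of that table. The other 6 symbols of the rule (Nr1d1, Cry1, Per1, Per2, Per3 and Dbp) either missed the criteria, were not measured, or belong to the 299 probe sets listed without a symbol. None of these 299 carried a RefSeq accession of the 6 genes.

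Within WT skin the 4 genes varied largely together. WT replicates 1 and 3 lay below the genotype mean for all 4 genes, and WT replicate 4 lay above it. Within KO skin they did not, as no KO array lay on the same side of the mean for all 4. On the second principal component of all probe sets, WT replicates 1 to 4 stood at −51.3, 17.4, 7.8 and 27.9. Replicates 1 and 3 were thus the lowest WT arrays there too, and replicate 4 the highest. Whether the joint variation in WT skin is particular to these 4 genes was not tested. WT replicate 4 was the highest WT array for Arntl, Cry2 and Ciart, and WT replicate 1 the lowest for Arntl, Nr1d2 and Ciart. Among the KO arrays replicate 3 was nearest to WT for Arntl, Nr1d2 and Ciart, and replicate 4 for Cry2. As a description over the 8 arrays, which share normalization, deviations from the genotype means correlated at 0.74 between Cry2 and Arntl and at 0.69 between Nr1d2 and Arntl. For Ciart the same coefficient was 0.40 with Cry2, 0.38 with Arntl and 0.19 with Nr1d2, and between Nr1d2 and Cry2 it was 0.13. Cry2 and Arntl lay on the same side of their genotype means on 6 of the 8 arrays, all but KO replicate 1 and WT replicate 2, while differing in opposite directions between the genotypes.

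The direction of all 4 differences was the same under 17 other settings (other scalings, variance models, filters and sets of arrays). The fits without moderation, with a variance trend, with low probe sets left out or with a replicate block return the deposited estimate by design. They could not change a direction, nor could leaving out arrays for Ciart, Cry2 and Nr1d2, whose groups do not overlap. Ciart ranged from −1.16 to −0.98 and Nr1d2 from 0.72 to 0.93, and both met the authors' criteria in all 17. Cry2 ranged from −0.91 to −0.61 and met them in 14. Arntl ranged from 0.43 to 0.66 and met them in 8.

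**Figure D3:**
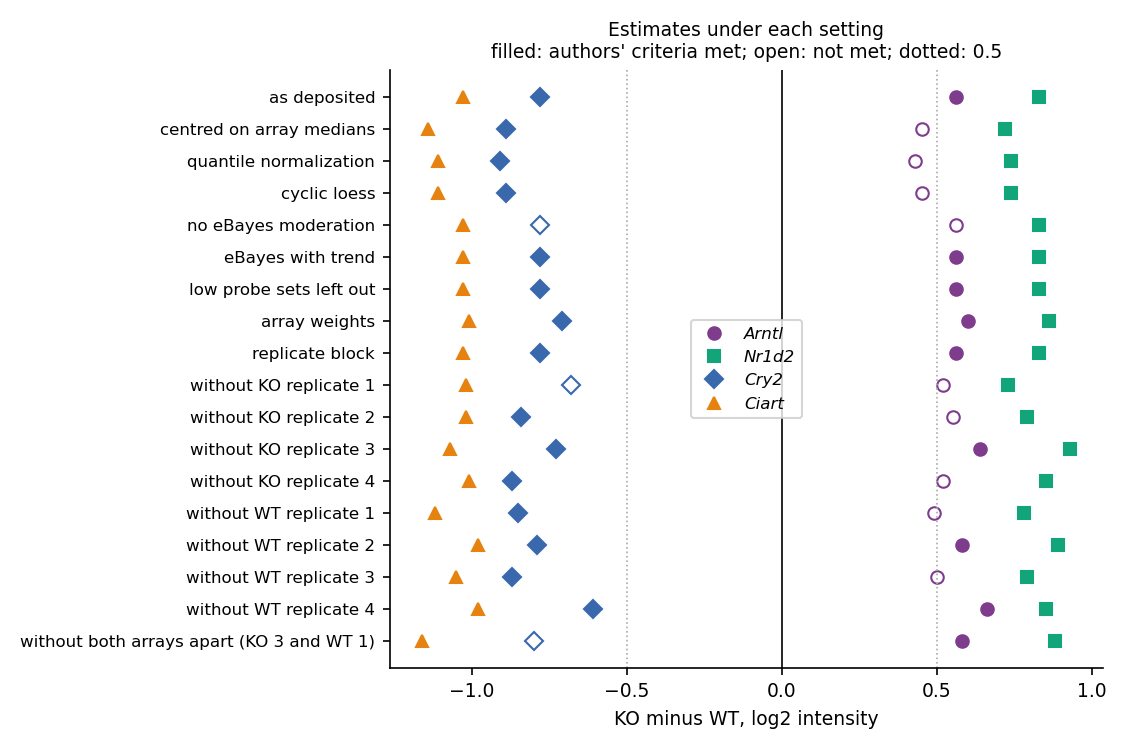
KO minus WT difference in log2 intensity of the 4 clock genes (symbols) as deposited and under 17 other settings (rows). Filled symbols met the authors' criteria and open ones did not, and dotted lines mark a difference of 0.5. Ciart and Nr1d2 are filled throughout, while 9 values of Arntl and 3 of Cry2 are open.

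The wider clock machinery was read from lists of 52 genes, chosen with earlier results of these data known. Of these, 15 (28.8%) are named in the authors' deposited table, against 16.2% of all probe sets, a share of genes beside a share of probe sets. Of the 15, KO skin had 12 at a higher and 3 at a lower level, so 80.0% were higher, against 74.0% of all 5080 named genes. Their median difference was 0.63, against 0.62 for all named genes and 0.09 for all probe sets. In direction and size the named clock genes thus lay close to the background of changed genes. The small counts by role that follow stand beside the same shares, 16.2% of probe sets called and 74.0% of named genes higher.

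Both named activators of 4, Clock and Arntl, were higher. Clock, the DNA-binding partner of BMAL1, had log2 intensities of 9.36, 8.97, 8.98 and 9.02 in KO replicates 1 to 4, against 8.32, 8.25, 8.49 and 8.74 in WT replicates 1 to 4. The groups did not overlap, and the difference was 0.63 ± 0.14 (SE), or 0.48 and short of the authors' criteria after quantile normalization. Of 8 repressors only Cry2 and Ciart are named, both lower. Of 5 nuclear receptors Nr1d2 and Rorb are named, both higher. Rorb, an activator through ROR elements best known from brain and retina, differed by 0.61 ± 0.16 with KO replicate 4 (5.21) just under WT replicate 3 (5.22). It missed the criteria in 9 of the 17 settings, among them centring (0.50), cyclic loess (0.51), no eBayes moderation, the fit without KO replicate 3 and WT replicate 1 (0.46), and each fit without KO replicate 1, 2 or 3 or WT replicate 1 or 2 (0.53 to 0.62).

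Hlf, a proline and acidic amino acid-rich bZIP factor and the 1 named of 4 bZIP output genes, was higher. It stood at 6.02, 5.93, 6.03 and 5.63 in KO replicates 1 to 4, against 5.07, 5.32, 5.23 and 5.36 in WT replicates 1 to 4. The difference of 0.66 ± 0.13 (SE) met the criteria in all 17 settings. Its relative Dbp, a classical E-box target, is not named.

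Of 20 genes whose products modify clock proteins, 3 are named (15.0%, against 16.2% of all probe sets). All 3 were higher, as were 74.0% of all named genes. Sirt1, a deacetylase that acts on BMAL1 and PER2, differed most, by 1.30 ± 0.24 (SE). Its KO values of 9.26, 8.05, 7.99 and 8.52 in replicates 1 to 4 spread over 1.27 units, against 7.12, 7.21, 7.11 and 7.16 in WT replicates 1 to 4, within 0.10. Without KO replicate 1 the difference was 1.03, the lowest of all settings. Fbxw11, a ubiquitin ligase subunit that marks PER proteins for degradation, differed by 0.62 ± 0.15, and Csnk1d, the casein kinase that phosphorylates them, by 0.55 ± 0.13. Both missed the criteria after centring and after quantile normalization. Fbxw11 also missed them without eBayes moderation, and Csnk1d after cyclic loess and without KO replicate 1 (0.49) or WT replicate 2 (0.49).

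Of 11 further output genes 5 are named (45.5%, against 16.2% of all probe sets), 4 higher and 1 lower, where 74.0% of all named genes were higher. Ccrn4l (Noct in RefSeq), which encodes the rhythmically expressed nocturnin, differed most of the 15 genes, by 1.44 ± 0.32 (SE). KO replicate 3 was at 6.87, below WT replicate 4 at 7.05, while the other KO arrays had 8.09 to 8.28 and the other WT arrays 5.88 to 6.45. Klf10 and Klf9, zinc finger factors that follow the clock and, for Klf9, glucocorticoids, differed by 0.92 ± 0.23 and 0.84 ± 0.21, and Hsf2, a heat shock factor, by 0.68 ± 0.15. Tsc22d3, a glucocorticoid-induced gene, was lower, with 5.92, 6.00, 6.09 and 5.83 in KO replicates 1 to 4 against 6.46, 6.83, 6.41 and 6.26 in WT replicates 1 to 4, a difference of −0.53 ± 0.14. Without eBayes moderation Ccrn4l, Klf9, Klf10 and Tsc22d3 all missed the criteria. Klf10 also missed them without KO replicate 4 (0.88), WT replicate 2 (0.82) or WT replicate 3 (0.90). Tsc22d3 did so without KO replicate 1 (−0.52), KO replicate 4 (−0.49), WT replicate 2 (−0.41), or KO replicate 3 and WT replicate 1 together (−0.58). In 11 of the 15 clock genes KO replicate 3 was the KO array nearest to WT.

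**Figure D4:**
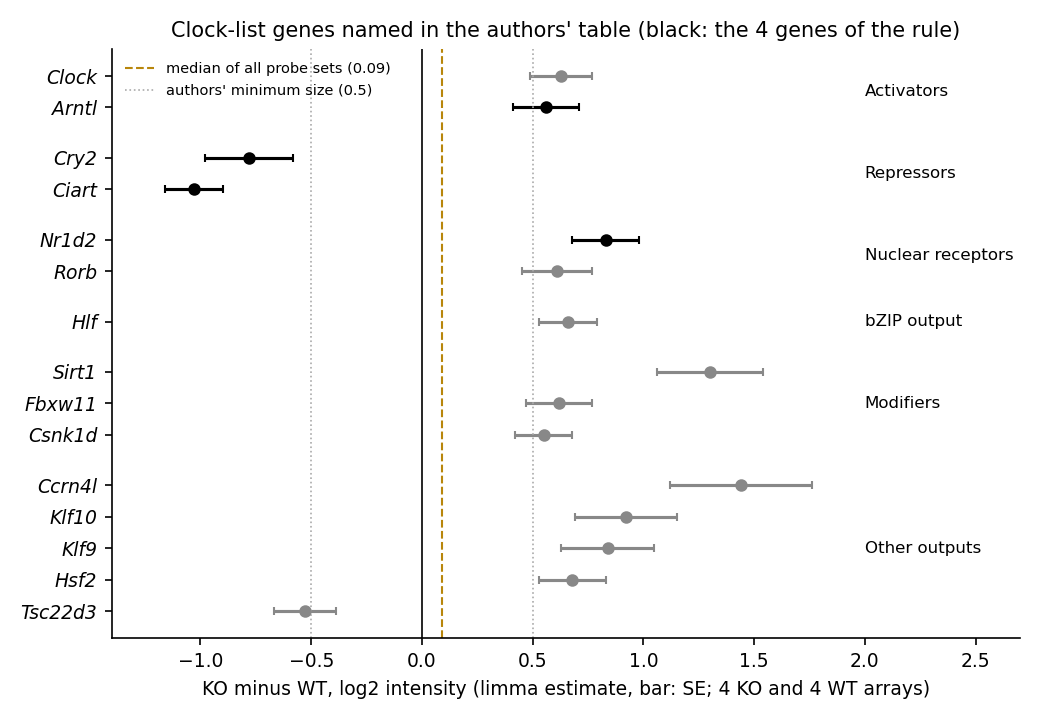
KO minus WT difference in log2 intensity (limma estimate, bar SE, 4 KO and 4 WT arrays) of the 15 clock-list genes that the authors' table names, grouped by role, with the 4 genes of the rule in black. The solid line marks 0, the dashed line the median of all probe sets (0.09) and the dotted lines the authors' minimum size. Cry2, Ciart and Tsc22d3 lie on the left, the other 12 on the right.

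Whole skin holds many cell types, and fewer cells of a type and less RNA per cell cannot be told apart. Of 13 leukocyte markers 8 are named and all were higher as deposited. Of all probe sets 16.2% were called, and 74.0% of all named genes were higher. After centring 6 of the 8 passed an adjusted p of 0.05 (limma), as did 4090 of all 5080 named genes, which the same contrast had chosen. The log2 of the summed linear intensities of the 8 markers, called summed level below, was 9.90 to 10.25 in KO and 9.00 to 9.43 in WT skin. The brightest genes weigh most in such a sum. Of 11 keratinocyte markers only Flg and Lor are named (18.2%), both lower, with a summed level of 13.14 to 13.39 in KO and 13.63 to 13.99 in WT skin. The others, among them Krt5, Krt14, Krt1 and Krt10, are not named, so the pair does not stand for keratinocytes at large. The fibroblast gene Mfap5 (1 named of 8) had 9.05 to 9.81 in KO and 8.17 to 9.13 in WT skin, and the muscle gene Myh1 (1 of 7) had 4.77 to 5.69 in KO and 3.73 to 4.27 in WT skin. For endothelium and pericytes Cldn5 and Rgs5 (2 named of 6) were higher too as deposited, with a summed level of 9.65 to 10.13 in KO and 8.86 to 9.48 in WT skin. After centring 0 of these 2 genes passed the same threshold, and neither did Mfap5. Log2 intensities have no true 0, and markers outside the authors' table could not be named. The part of these shifts in the clock gene differences was not tested.

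The genes whose pattern over the 8 arrays was most like each clock gene were sought among 2825 named genes that are neither predicted nor RNA genes nor on the clock lists. By Pearson correlation, which here largely reflects genotype, Ciart was closest to Mtcp1 (0.992), Lce1a2 (0.989) and Tex264 (0.989). Nr1d2 was closest to Efna1 (0.993), Cldn4 (0.990) and Actl7b (0.990), Cry2 to Luc7l3 (0.966), Sertm1 (0.965) and Zfp692 (0.948), and Arntl to Parp14 (0.989), Il1rn (0.989) and Fosl1 (0.984). By deviations from the genotype means over the same 8 arrays, Parp14 (0.963) and Il1rn (0.973) stayed among the 3 closest to Arntl, with Katnbl1 (0.961). Efna1 (0.961) stayed for Nr1d2, with Ecm2 (0.971) and Nme8 (0.962), and Sertm1 (0.968) for Cry2, with Tac1 (0.971) and Mfsd2a (0.963). The 3 closest to Ciart by deviations, B4galnt4 (0.938), Cnp (0.938) and Zyg11a (0.934), were all higher in KO skin, where Ciart was lower.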

How the data were processed

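Total RNA from 8 whole-skin samples, 4 KO and 4 WT, was measured on Affymetrix Gene Mouse 2.0 ST arrays, per the file headers. The deposited series values are log2 intensities, and the submitters' processing notes name RMA, without a version. For 5460 probe sets the authors deposited group means (log2), the linear ratio of KO over WT and its log2. They also deposited p-values, raw and after Benjamini-Hochberg adjustment, per the file headers. Annotation class was 1 for all 15 clock-list probe sets. No batch or scan date is given in the labels or files used here.

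Values were fitted as deposited without covariates by lmFit and eBayes (limma 3.58.1 under R 4.3.3) over 33793 probe sets, which returned the same 5460 at the authors' criteria; the fit was checked on simulated data. With 4 arrays a group, the number of arrays limits precision. Where a gene had several probe sets, that with the highest mean was used; each clock gene had 1. Genes, lists and alternatives were chosen with earlier results of these data known. Genes named were Cdsn, all named clock-list genes, the 3 most similar genes per clock gene by each measure, and up to 4 genes per other list with the largest difference. Replicate numbers were shared between genotypes, but deviations of same-numbered arrays correlated at −0.03, 0.14, 0.23 and 0.01, so they were not taken as pairs.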

Additional observations from a re-analysis of the deposited data

Results flagged for a closer look

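Of 74 groups of 4 values (37 genes in KO and in WT skin), 8 had 1 extreme value set off from the other 3, where the distance to its neighbour, divided by the range of the group, passed the critical value of Dixon's test. Chance alone marks about 1 in 20 groups, or 3.7 here. None of the 8 fell in Arntl, Nr1d2, Cry2 or Ciart.

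KO replicate 3 held 3 of them, each the lowest KO value: Ccrn4l at 6.87 (others 8.09 to 8.28), Hsf2 at 6.31 (others 6.90 to 6.97) and Il6 at 7.79 (others 9.38 to 9.46). In KO replicate 1 Clock was highest at 9.36 (others 8.97 to 9.02). KO replicate 4 had the highest Mmp9 at 5.31 (others 4.83 to 4.86) and the highest S100a8 at 6.54 (others 4.90 to 5.08). In WT replicate 4 Lor was highest at 13.05 (others 12.56 to 12.59) and Rgs5 lowest at 8.62 (others 9.20 to 9.30).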

How the results depend on the processing

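Every one of the 15 clock-list genes kept the direction of its difference under all 17 alternatives, and each estimate stayed within 1 SD of the replicates. Fits without moderation, with a variance trend, with low probe sets left out or with the replicate block return the deposited estimate by design. Leaving out 1 array, or 1 array of each genotype, cannot move an estimate by more than 1 SD either, so these fits could not pass that limit. That leaves the 3 scalings and the fit with array weights. Of probe sets as a whole, 7194 passed an adjusted p of 0.05 (limma), with 71.4% higher in KO. The count was 4821 to 6424 when single arrays were left out and 6250 with the replicate block, a fit that changed no call among the 4 genes of the rule. It was 3298 when probe sets below the median level were left out, which tests fewer probe sets, and 4923 without eBayes moderation. The share higher in KO was 49.1% after centring and 50.5% after quantile normalization or cyclic loess. Cry2 missed the authors' criteria in 3 settings, one being the fit without moderation (−0.78 ± 0.23, SE). Arntl missed them in 9, namely the 3 scalings, no moderation (0.56 ± 0.15), and without KO replicate 1 (0.52), KO replicate 2 (0.55), KO replicate 4 (0.52), WT replicate 1 (0.49) or WT replicate 3 (0.50). The planned mean over several probe sets did not apply, because each gene had 1. The cause of these losses was not tested. No detection value was used here, so signal over background is unknown.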

Other observations

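Of 17 early genes of the kind known to be induced when the clock of cultured cells is reset, 7 are named in the authors' deposited table, against 16.2% of all probe sets, and the other 10 have no value here. Of the 7, 6 were higher and 1 lower in KO skin, where 74.0% of all named genes were higher. Their median difference was 0.69 on the log2 scale, against 0.62 for all named genes. After centring 4090 of all 5080 named genes passed an adjusted p of 0.05 (limma), and 5 of the 7 did. The largest were Egr2, at 8.21, 8.44, 7.12 and 8.21 in KO replicates 1 to 4 against 6.57, 6.83, 6.45 and 7.31 in WT replicates 1 to 4, and Ier2, which differed by 1.12 ± 0.16 (SE). Atf3 (0.70 ± 0.14) and Junb (0.69 ± 0.17) were also higher.

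Glucocorticoid-response genes, several of which follow the clock, went both ways. Of 13, 6 are named, 4 higher and 2 lower. The higher ones were Errfi1 (1.06 ± 0.22, SE), Sgk1 (0.99 ± 0.21), Klf9 and Dusp1, and the lower ones Ddit4 (−0.83 ± 0.15) and Tsc22d3. Of 6 genes that REV-ERB receptors are known to repress in mouse macrophages, 4 are named and all were higher in KO skin, where Nr1d2 was higher too. The shares for all features are those above, and the 8 named leukocyte markers were also all higher, whose part in these differences was not tested. The 4 genes were Il1b (2.97 ± 0.28), Ccl2 (2.33 ± 0.28), Il6 (2.14 ± 0.36) and Mmp9 (0.70 ± 0.16). Mmp9 stood at 4.08 to 4.61 in WT skin, below the array medians given above. Every gene given here met the authors' criteria on the same arrays, so no test is added.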
